A study of Mus musculus with 180 samples.

Results

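Embryoid bodies are free-floating aggregates in which embryonic stem cells differentiate without added direction, and 1289 of the 17789 kept cells of a mouse embryoid body library (7.25%) carried RNA of both Pitx1 and Tbx4. These Pitx1 Tbx4 cells were chosen by a rule on measured counts: at least 1000 genes detected, at most 15% of unique molecular identifiers (UMIs, each of which tags 1 RNA molecule) from mitochondrial genes, and at least 1 UMI of Pitx1 and at least 1 of Tbx4. The Pitx1 and Tbx4 values of the cells are therefore a description, and no test is made on them. The study compared the genomes of the inbred strains C57BL/6J (B6) and DBA/2J (D2) in pluripotent cells, and its title links them to a bias in differentiation. For the single-cell library, embryonic stem cell lines grown in naive conditions passed 48 h in the epiblast-like state, formed aggregates of 750 cells over 48 h, and were rotated for a further 48 h. Each embryoid body sample was labelled with its own lipid-anchored DNA barcode, here called a hash, and the samples, a mixture of B6 and D2, were run as 1 pooled library. The labels do not say which strain or line a hash marks, and the 12 hashes are therefore given by the names in the file, with no comparison of strains. Within a hash, the cells compared came from the same embryoid body sample, and no genetic change and no agent separated them. The bulk values given further below are of lines that differ in strain.

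Pitx1 encodes a homeodomain transcription factor of the hindlimb field and of oral ectoderm, and Tbx4 a T-box factor of the hindlimb field, the allantois and the lung bud. In the mouse embryo both are transcribed in posterior lateral plate mesoderm, from which the hindlimb bud forms, and Tbx4 is needed in the allantois, the extraembryonic mesoderm bud that fuses with the chorion and gives rise to the vessels of the umbilical cord. Posterior Hox genes and the caudal factors Cdx1, Cdx2 and Cdx4 mark the posterior end of the embryo, and both tissues derive from the late primitive streak. The values below bear on whether the Pitx1 Tbx4 cells carried the genes of allantois, of hindlimb mesenchyme, or of both.

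In the GRCm38 annotation Tbx4 (ENSMUSG00000000094) lies on the plus strand at chr11:85886422-85916097 and Pitx1 (ENSMUSG00000021506) on the minus strand at chr13:55825051-55836192. Hoxa10 (ENSMUSG00000000938) lies on the minus strand at chr6:52231197-52240854 and Cdx2 (ENSMUSG00000029646) on the minus strand at chr5:147300805-147307270. All 4 are protein-coding genes. The RefSeq promoters of Tbx4 and Hoxa10 (GRCm38.p6, 250 bases before to 50 after a listed start, written 5′ to 3′ on the gene's strand) are shown because Tbx4 chose the cells and Hoxa10 had the largest log2 difference of the allantois list. Capitals mark TTTAT, the core shared by the sites of CDX and posterior HOX factors, searched on both strands (TTTAT or ATAAA). The Tbx4 window is chr11:85896515-85896814 on the plus strand, inside the annotated gene, and the Hoxa10 window is chr6:52240805-52241104 on the minus strand, across the annotated start.
Tbx4: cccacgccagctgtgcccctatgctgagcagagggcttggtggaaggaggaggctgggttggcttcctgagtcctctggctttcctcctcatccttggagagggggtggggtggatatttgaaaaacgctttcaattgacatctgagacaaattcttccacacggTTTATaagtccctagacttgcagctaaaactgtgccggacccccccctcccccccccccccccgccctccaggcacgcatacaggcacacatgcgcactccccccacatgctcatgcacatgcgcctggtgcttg
Hoxa10: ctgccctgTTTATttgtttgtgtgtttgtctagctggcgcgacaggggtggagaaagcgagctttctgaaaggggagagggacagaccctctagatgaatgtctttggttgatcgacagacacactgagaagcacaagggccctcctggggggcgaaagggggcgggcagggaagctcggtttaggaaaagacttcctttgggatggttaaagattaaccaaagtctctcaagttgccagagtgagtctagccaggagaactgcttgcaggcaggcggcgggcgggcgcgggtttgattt
Hoxa10 has a second RefSeq promoter, chr6:52234890-52235189 on the minus strand, which also holds 1 match and is not shown. Each window shown held 1 match, and 40.0% of 32851 RefSeq promoters of the same length held the motif at least once. A match is a description of the letters and not a site shown to be used.

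All cells came from 1 RNA library of 20134 barcodes. A cell was given to a hash when its largest hash count was at least 2 times the second, which placed 15568 kept cells and 1136 Pitx1 Tbx4 cells in 12 hashes. For the tests, UMIs were summed per hash, giving 17 to 255 Pitx1 Tbx4 cells and 908848 to 12243257 UMIs per sum, against 809 to 1443 cells and 29759357 to 56547820 UMIs for all other kept cells of the same hash. The hash is the replicate. Where the embryoid body samples behind the hashes came from is not stated. With the hash as a block, p-values measure how evenly the difference within a hash held over these 12 samples. Hashes B1, B2, B3, C1 and CB stood apart from the 7 hashes with names starting D in the genes given next, in Pitx1 Tbx4 cells and in all other cells alike. In the Pitx1 Tbx4 cells, Foxf1, a transcription factor gene of lateral plate mesoderm, had 10.4 to 26.4 CPM (UMIs scaled to a common total of 1e6 per sum) in those 5 hashes and 88.4 to 129.8 CPM in the 7 hashes named D. Hand1, a transcription factor gene of extraembryonic and lateral mesoderm, had 124.2 to 233.0 CPM in B1, B2, B3, C1 and CB and 519.3 to 984.2 CPM in the 7 hashes named D. Prrx2, a homeobox gene of limb and other mesenchyme, ran the other way, with 78.1 to 177.0 CPM in B1, B2, B3, C1 and CB and 24.3 to 37.9 CPM in the 7 hashes named D. The results are therefore also given for each of the 2 sets of hashes by itself, a split made after the values were seen.

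The share of Pitx1 Tbx4 cells ran over the hashes between 2.06% and 18.7%, with a median of 5.98%. Hash D2 was highest, with 255 of 1365 kept cells (exact Clopper-Pearson 95% interval 16.7% to 20.9%). Hash D1 followed with 11.3% (9.73% to 13.01%) and hash D331 with 9.86% (8.37% to 11.5%), and these 2 intervals overlapped. The remaining hashes named D had 5.19% to 7.88%, hashes C1 and CB 4.16% and 4.31%, and hashes B1, B2 and B3 2.72%, 2.06% and 2.43%. The intervals of the 3 hashes named B overlapped each other and lay below those of the 7 hashes named D, and they cover counting error only. Median depth per kept cell was 32095 to 41150 UMIs over the hashes, and the part of depth in these shares was examined by thinning the cells, with the values given in the closing section.

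**Figure D1:**
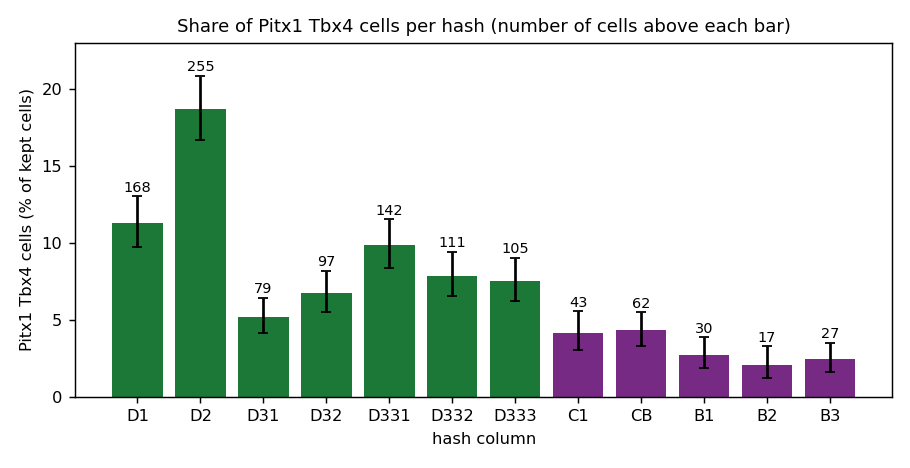
Share of kept cells that were Pitx1 Tbx4 cells in each of the 12 hash columns, in percent, with exact 95% binomial intervals and the number of Pitx1 Tbx4 cells above each bar. Hashes named D are green and hashes C1, CB, B1, B2 and B3 purple; hash D2 reached 18.7% and hashes B1 to B3 stood at 2.06% to 2.72%.

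Relative to their lowest values, the hashes differed less in Pitx1 than in Tbx4. The share of kept cells with a Pitx1 UMI was 31.7% to 52.2% over the 12 hashes and 33.4% to 35.6% in hashes B1, B2 and B3. The share with a Tbx4 UMI was 6.31% to 20.6% in the 7 hashes named D, 6.19% and 6.53% in hashes C1 and CB, and 3.69% to 4.35% in hashes B1, B2 and B3. Free RNA in the droplets can give a UMI to a cell that does not express the gene. Primitive erythroid cells, taken as cells with 50 or more UMIs of embryonic globins and with a median of 43680 UMIs per cell, served as its measure: 14 of 327 held a Tbx4 UMI (4.28%, interval 2.36% to 7.08%). Of these 14 erythroid cells 9 also held Pitx1 and were themselves Pitx1 Tbx4 cells, while 59 of all 327 held a Pitx1 UMI. The measure thus counts cells of the class in question, and doublets within a hash were not removed. It is therefore not a clean level of free RNA. The Tbx4 shares of hashes B1, B2, B3, C1, CB and D31 lay within the interval of 2.36% to 7.08%. For that reason the measure cannot decide whether these shares exceed background. The part of free RNA in the Pitx1 Tbx4 cells of these hashes was not tested. Erythroid cells with a Tbx4 UMI were unevenly spread: 6 of the 80 of hash CB held one (7.50%), against none of the 7, 6 and 9 of hashes B1, B2 and B3 and none of the 16 of hash D31. In the 7 hashes named D, 10.8% of 10053 kept cells had a Tbx4 UMI, against 2 of 133 erythroid cells (1.504%, interval 0.183% to 5.33%). In hashes B1, B2, B3, C1 and CB together, the share was 5.08% of 5515 kept cells, against 7 of 155 erythroid cells (4.52%, interval 1.84% to 9.08%).

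Among the Pitx1 Tbx4 cells, Pitx1 was the more abundant count, with a mean of 12.8 UMIs per cell (median 10, highest 85). Tbx4 had a mean of 2.60 UMIs (median 2, highest 19), and 596 of the cells (46.2%) passed with a single Tbx4 UMI while 449 (34.8%) held 3 or more. Of all Tbx4 UMIs in kept cells 90.1% lay in Pitx1 Tbx4 cells, against 34.5% of Pitx1 UMIs. Of the 1566 kept cells with a Tbx4 UMI 82.3% also had Pitx1, and of the 6881 with a Pitx1 UMI 18.7% also had Tbx4. The rule fixed these counts, and they are a description. A single Tbx4 UMI was the case for 415 of 957 Pitx1 Tbx4 cells of the hashes named D (43.4%) and for 107 of 179 in hashes B1, B2, B3, C1 and CB (59.8%).

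Cells just inside the rule and cells with higher counts are set side by side as pooled levels, and their hashes differ: of the hashed cells with 3 or more Tbx4 UMIs, 354 were of the hashes named D and 38 of B1, B2, B3, C1 and CB. The 67 cells with exactly 1 UMI of each gene had 13.7 CPM of Hoxa10, against 6.91 CPM in 5592 cells with Pitx1 and no Tbx4, 10.9 CPM in 277 cells with Tbx4 and no Pitx1, and 4.36 CPM in 10631 cells with neither. The 449 cells with 3 or more Tbx4 UMIs had 45.4 CPM of Hoxa10. Twist1, a mesenchymal basic helix-loop-helix factor gene, had 88.6 CPM in the cells with 1 UMI of each, 82.4 CPM with Pitx1 alone, 84.9 CPM with Tbx4 alone and 274.9 CPM in cells with 3 or more Tbx4 UMIs. Cdx2 had 205.0 CPM, 192.0 CPM, 134.7 CPM and 261.4 CPM in the same 4 classes and 71.6 CPM in cells with neither gene. These are pooled levels of all kept cells in each class, with no test.

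The label of these cells as posterior mesoderm rests on Hoxa10 and Cdx2 beside the 2 genes of the rule. Both belong to the allantois list, and the lists were chosen with earlier results of these data known. Their values describe the label and are no independent support for it. A Hoxa10 UMI was present in 54.7% of Pitx1 Tbx4 cells (interval 51.9% to 57.4%), against 9.33% of all other kept cells (8.89% to 9.79%) and 4.59% of erythroid cells. A Cdx2 UMI was present in 93.9% of Pitx1 Tbx4 cells (92.4% to 95.1%), against 56.0% of all other kept cells (55.2% to 56.7%) and 28.7% of erythroid cells. The median depth was 48430 UMIs in Pitx1 Tbx4 cells, 37130 in all other kept cells and 43680 in erythroid cells, so depth differed between the classes. Thinned shares are given in the closing section. They keep the Pitx1 Tbx4 cells chosen at full depth. Both markers were present above the level of erythroid cells. Pooled over hashes, most Pitx1 Tbx4 cells also carried genes of lateral and extraembryonic mesoderm: 83.1% held UMIs of both Hand1 and Foxf1, against 44.8% of all other kept cells. Of the 1136 Pitx1 Tbx4 cells with a hash, 957 were of the hashes named D, and the share was not taken per hash. In hash B1 Foxf1 was lower in Pitx1 Tbx4 cells (10.4 CPM) than in all other kept cells (16.15 CPM). In B2 it had 15.4 CPM in both, and in the remaining hashes it was higher in Pitx1 Tbx4 cells. Cells with both Kdr and Cdh5, which mark endothelium, made up 6.91% of them and 16.5% of all other kept cells, and cells with 50 or more globin UMIs 0.698% and 1.93%.

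The first comparison sets the Pitx1 Tbx4 cells against all other kept cells of the same hash. Of 12576 genes tested, 35.5% passed, 2148 of them higher (17.1%) and 2322 lower (18.5%) in Pitx1 Tbx4 cells at an adjusted p under 0.05, by edgeR's quasi-likelihood test with the hash as a block and Benjamini-Hochberg (BH) adjustment over all genes tested. Changes beyond 2-fold numbered 105 upward and 523 downward. The 7 hashes named D alone gave 2910 higher and 2782 lower of 13042 tested, and hashes B1, B2, B3, C1 and CB alone 235 higher and 467 lower of 12588. Counts of list genes given below for either hash set are to be read against the counts of that set. Log2 fold changes below are Pitx1 Tbx4 cells over the comparison cells, with the standard error (SE) of the fit.

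Genes of the allantois were mostly higher in Pitx1 Tbx4 cells. Of the 18 listed genes 16 could be tested, and 13 were higher and none lower, with a median log2 difference of 1.02 against -0.004 over all genes tested. Leading the list were the AbdB-type Hox genes of the allantois and posterior body. Hoxa10 had 10.2 CPM in the lowest hash, a median of 30.7 CPM and 41.3 CPM in the highest in Pitx1 Tbx4 cells, against 1.63, 5.07 and 10.3 CPM in all other cells. It was higher in 12 of 12 hashes, and the groups overlapped only in that hash B3 of the Pitx1 Tbx4 cells, at 10.2 CPM, lay below hashes B1 and B2 of the other cells, both at 10.3 CPM. Its log2 fold change was 2.73 (SE 0.309; edgeR quasi-likelihood test, BH-adjusted p = 3.57e-06), 3.48 in the hashes named D alone and 1.05 in B1, B2, B3, C1 and CB alone. Hoxa11, its neighbour in the cluster, had 1.45, 11.5 and 17.6 CPM in Pitx1 Tbx4 cells as lowest, median and highest hash, against 0.796, 2.09 and 4.59 CPM in all other cells (log2 fold change 2.49, SE 0.304). Hash B3 alone had the lower value in Pitx1 Tbx4 cells for Hoxa11, and in B1, B2, B3, C1 and CB alone its difference of 0.73 did not pass (edgeR quasi-likelihood test, BH-adjusted p = 0.195).

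Tbx2, a T-box repressor of the allantois and other mesoderm that adjoins Tbx4 on chromosome 11, had 18.1, 30.6 and 44.4 CPM as lowest, median and highest hash in Pitx1 Tbx4 cells, against 5.81, 7.36 and 13.9 CPM in all other cells. The groups did not overlap, and the log2 fold change was 1.90 (SE 0.169; edgeR quasi-likelihood test, BH-adjusted p = 2.93e-07), with 2.32 in the hashes named D alone and 1.01 in B1, B2, B3, C1 and CB alone, both past the test. Twist1 had 90.7, 201.5 and 258.8 CPM against 50.2, 65.4 and 111.7 CPM in the same order, higher in 12 of 12 hashes with a log2 fold change of 1.47 (SE 0.137). Snai1, a zinc finger factor of the epithelial to mesenchymal transition, had 27.5, 32.8 and 44.8 CPM, against 13.6, 17.3 and 20.01 CPM, with no overlap (log2 fold change 1.05, SE 0.0664). Spin2c, listed among allantois genes, had the smallest adjusted p of the list: 78.8, 385.5 and 498.3 CPM in Pitx1 Tbx4 cells, against 30.4, 108.3 and 183.8 CPM in all other cells. Its values split by hash set, with 78.8 to 134.2 CPM in B1, B2, B3, C1 and CB of the Pitx1 Tbx4 cells and 339.4 to 498.3 CPM in the hashes named D, yet its log2 fold changes within the sets were 1.44 and 1.63.

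The caudal factor gene Cdx2 had 84.3, 288.6 and 353.1 CPM in Pitx1 Tbx4 cells as lowest, median and highest hash, against 63.9, 116.5 and 158.1 CPM in all other cells. It was higher in 12 of 12 hashes (log2 fold change 0.98, SE 0.109; edgeR quasi-likelihood test, BH-adjusted p = 2.78e-06), with 1.23 in the hashes named D alone and 0.50 in B1, B2, B3, C1 and CB alone, both past the test. Cdx4 also passed as higher, with a log2 fold change of 2.74 (SE 0.37) in the hashes named D alone. It was sparse, with a median of 0.716 CPM in Pitx1 Tbx4 cells and 0.483 CPM in all other cells. Its level was higher in 7 of 12 hashes, and it was too low to test in B1, B2, B3, C1 and CB alone. Cdx1 was too low to test, with 17 UMIs in all Pitx1 Tbx4 cells. The BMP ligand gene Bmp7 (log2 fold change 0.69, SE 0.0992) and the BMP-responsive homeobox gene Msx1 (0.71, SE 0.0915) were each higher in 12 of 12 hashes, and Bmp4, which the allantois needs to form, was higher by 0.24 (SE 0.0646) in 11 of 12. Bmp7 (0.61), Msx1 (0.25), Bmp4 (0.05) and Foxf1 (0.29) did not pass in B1, B2, B3, C1 and CB alone. Hand1 (0.15, SE 0.0607), Msx2 (0.14, SE 0.0519) and the R-spondin gene Rspo3 (-0.22, SE 0.131) did not pass. Vcam1, the adhesion molecule with which the allantois attaches to the chorion, was nearly absent, with 0.501 CPM in Pitx1 Tbx4 cells and 0.500 CPM in all other cells. In B1, B2, B3, C1 and CB alone 8 of 16 allantois genes were higher and none lower (median 0.67), and in the hashes named D alone 13 were higher and 1, Rspo3, lower (median 1.19).

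Genes of the hindlimb mesenchyme list also rose in larger number than they fell, with a smaller median difference. Of 25 genes listed 21 were tested, 13 were higher and 3 lower, and the median log2 difference was 0.43. The 2 lists share no gene, but 3 genes of the allantois list and 6 of the hindlimb list are Hox genes. A gene placed on 1 list can also be expressed in the other tissue, and Hoxa10 and Cdx2 of the allantois list are markers of the label. The medians of the 2 lists were not tested against each other and do not tell the 2 tissues apart. Isl1, a LIM homeobox gene that precedes and starts the hindlimb bud, had 23.3, 47.9 and 70.6 CPM in Pitx1 Tbx4 cells as lowest, median and highest hash, against 12.7, 18.9 and 26.2 CPM in all other cells. Isl1 was higher in 12 of 12 hashes, hash CB of the Pitx1 Tbx4 cells was the lowest and fell within the range of the other cells, and the log2 fold change was 1.36 (SE 0.0997; edgeR quasi-likelihood test, BH-adjusted p = 3.15e-08), with 1.54 in the hashes named D alone and 0.97 in B1, B2, B3, C1 and CB alone. Prrx1, a homeobox gene of limb mesenchyme, had 6.08, 9.70 and 30.5 CPM against 1.84, 2.59 and 15.1 CPM. Its 5 highest levels in all other cells were those of B1, B2, B3, C1 and CB, and its log2 fold change of 1.28 (SE 0.219) came to 1.87 in the hashes named D alone and 0.36 in the others alone, which did not pass. Prrx2 was higher by 0.72 (SE 0.0738), Sall4, a zinc finger gene of limb outgrowth, by 0.65 (SE 0.0643), and Lmx1b, the LIM homeobox gene of the dorsal limb, by 1.78 (SE 0.227) at a median of 1.18 CPM.

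Several genes of limb bud outgrowth were lower or too sparse to test. Fgf10, the ligand by which limb mesenchyme induces the overlying ectoderm, had 5.96, 9.93 and 17.2 CPM in Pitx1 Tbx4 cells as lowest, median and highest hash, against 9.01, 17.6 and 31.7 CPM in all other cells. It was lower in 11 of 12 hashes (log2 fold change -0.79, SE 0.100), with -0.91 in the hashes named D alone and -0.29 in B1, B2, B3, C1 and CB alone, which did not pass. Pkdcc, a secreted kinase of skeletal growth, had 11.8, 24.6 and 55.9 CPM against 49.1, 64.3 and 94.6 CPM and was lower in 12 of 12 hashes (log2 fold change -1.44, SE 0.201), with -1.97 in the hashes named D alone and -0.35 in B1, B2, B3, C1 and CB alone, which did not pass. Meis1, a homeobox gene of the proximal limb, was lower by a log2 fold change of -0.36 (SE 0.122) and passed in neither hash set alone (-0.23 in the hashes named D and -0.56 in the others). Shh, the ligand of the limb's polarizing region, Grem1, a BMP antagonist, Lhx9 and Hoxd12 were too low to test, at 0.250, 0.265, 0.177 and 0.0884 CPM in Pitx1 Tbx4 cells. Shox2, Lhx2, Alx4 and Irx5 did not pass, at medians of 0.605, 0.895, 0.780 and 5.33 CPM in Pitx1 Tbx4 cells. In the hashes named D alone 15 hindlimb genes were higher and 2 lower of 21 (median 0.75), and in B1, B2, B3, C1 and CB alone 5 were higher and 1 lower of 21 (median 0.22).

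**Figure D2:**
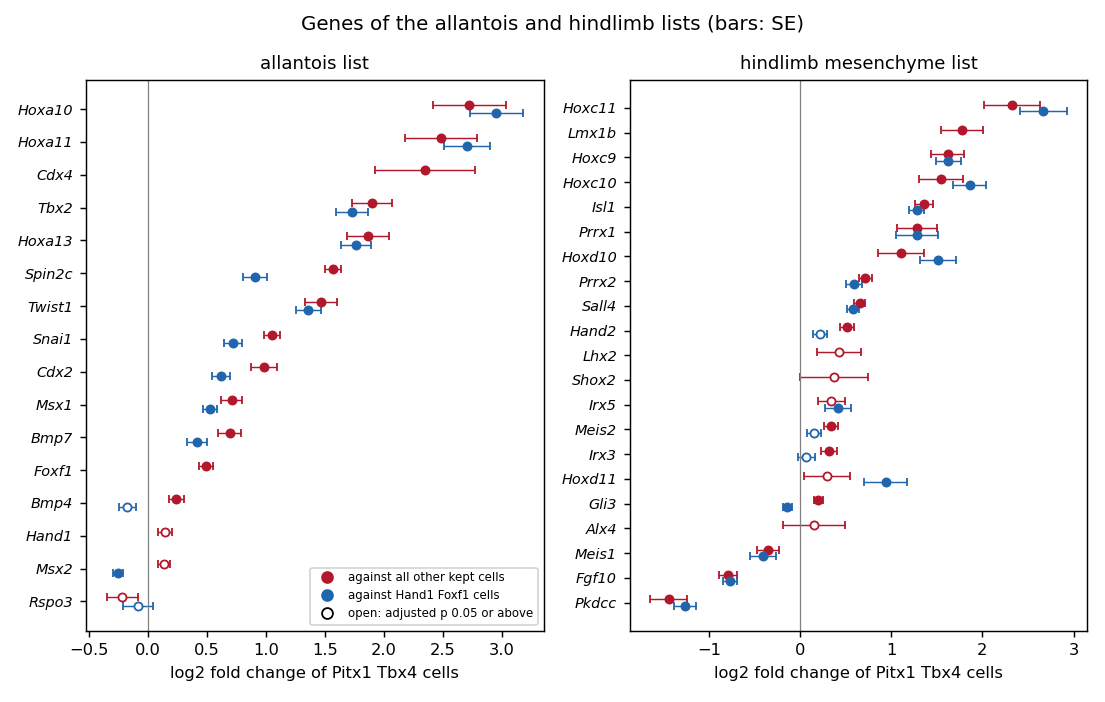
Log2 fold changes of Pitx1 Tbx4 cells for each tested gene of the allantois list (left) and hindlimb mesenchyme list (right), with standard errors, against all other kept cells (red) and against Hand1 Foxf1 cells (blue); open circles did not pass. Hoxa10, Hoxa11, Tbx2 and Twist1 lie far right in the left panel for both comparisons, and Hoxc9, Hoxc10, Hoxc11 and Isl1 in the right panel, with Pkdcc and Fgf10 at the lower end.

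The forelimb and anterior lateral plate list was examined beside the hindlimb one. Tbx5, the forelimb counterpart of Tbx4, had 0, 0.671 and 5.96 CPM in Pitx1 Tbx4 cells as lowest, median and highest hash, against 0.237, 0.965 and 1.85 CPM in all other cells, and did not pass. Of 7 listed genes tested, 5 were higher and 1 lower (median 1.06), with 5 higher and 1 lower of 8 in the hashes named D alone (median 0.76) and none higher and 1 lower of 6 in B1, B2, B3, C1 and CB alone (median 0.26). Aldh1a2, the enzyme gene of retinoic acid synthesis, was higher by a log2 fold change of 2.45 (SE 0.309) at a median of 4.81 CPM against 0.907 CPM, and Gata5 and Tcf21 were higher by 2.25 and 1.26 at medians of 3.101 and 2.58 CPM. Hoxb6 had 7.38, 64.8 and 106.2 CPM, against 5.48, 29.8 and 43.9 CPM, and all 5 of its lowest values in Pitx1 Tbx4 cells were in B1, B2, B3, C1 and CB (log2 fold change 1.07, SE 0.110; 0.10 in those hashes alone, which did not pass).

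Most Hox genes were higher in Pitx1 Tbx4 cells, and the anterior genes of the Hoxb cluster were lower. Of 39 listed, 31 were tested against all other kept cells, and 23 were higher, 5 lower and 3 did not pass, with a median of 1.11. The 5 lower genes were Hoxb1 (log2 fold change -1.48, SE 0.246), Hoxb2 (-0.69, SE 0.0889), Hoxb3 (-0.31, SE 0.0881), Hoxb4 (-0.68, SE 0.107) and Hoxb5 (-0.91, SE 0.145), which are the anterior members of their cluster. The Hoxb genes from Hoxb6 to Hoxb9, by contrast, were higher by 0.79 to 1.31. In the Hoxa cluster Hoxa7, Hoxa9, Hoxa10, Hoxa11 and Hoxa13 were higher by 1.87 to 2.73, and Hoxa3 (0.40, SE 0.352) did not pass. All 8 Hoxc genes tested were higher, the anterior Hoxc4 (1.67, SE 0.191) and Hoxc5 (1.55, SE 0.204) included. Hoxc8 had 40.1, 73.3 and 101.9 CPM in Pitx1 Tbx4 cells as lowest, median and highest hash, against 9.11, 20.5 and 43.0 CPM in all other cells (log2 fold change 1.78, SE 0.239). Hoxc9, expressed in lateral plate at hindlimb level, had 47.4, 57.4 and 81.4 CPM, against 8.70, 17.5 and 43.7 CPM, with no overlap between the groups. Hoxd9 was higher by 1.49 (SE 0.229), Hoxd10 by 1.11 (SE 0.257), Hoxd13 by 1.12 (SE 0.247), the anterior Hoxd1 by 0.46 (SE 0.0880), and Hoxd11 did not pass (0.30, SE 0.253).

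The Hox differences were mostly larger in the hashes named D. Of all genes tested, 2910 of 13042 were higher and 2782 lower in the hashes named D alone. The counts were 235 and 467 of 12588 in the other hashes alone, which held 179 Pitx1 Tbx4 cells against 957. Among Hox genes, 25 of 31 were higher and 5 lower in the hashes named D alone (median 1.62). In B1, B2, B3, C1 and CB alone 5 of 33 were higher and 4 lower (median 0.08). The 5 higher there were Hoxa10, Hoxa13, Hoxc6, Hoxc8 and Hoxc9, and the 4 lower were Hoxb2, Hoxb4, Hoxb5 and Hoxb9. Hoxb9 thus passed in opposite directions, with log2 fold changes of 1.65 (SE 0.123) in the hashes named D and -0.82 (SE 0.211) in the others. Where the sets parted differed by gene. In Pitx1 Tbx4 cells of the hashes named D, Hoxb6 had 61.7 to 106.2 CPM and Hoxd9 79.6 to 95.1 CPM. In those of B1, B2, B3, C1 and CB they had 7.38 to 16.5 and 25.8 to 40.7 CPM, with no overlap. Hoxc10 overlapped there and parted in all other cells. In Pitx1 Tbx4 cells it had 29.8 to 46.9 CPM in the hashes named D and 29.02 to 67.1 CPM in B1, B2, B3, C1 and CB, which overlap, whereas in all other cells it had 3.94 to 11.7 CPM in the hashes named D and 27.3 to 46.7 CPM in B1, B2, B3, C1 and CB. The difference between the hash sets was not tested, because the labels do not say what the hash names stand for.

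**Figure D3:**
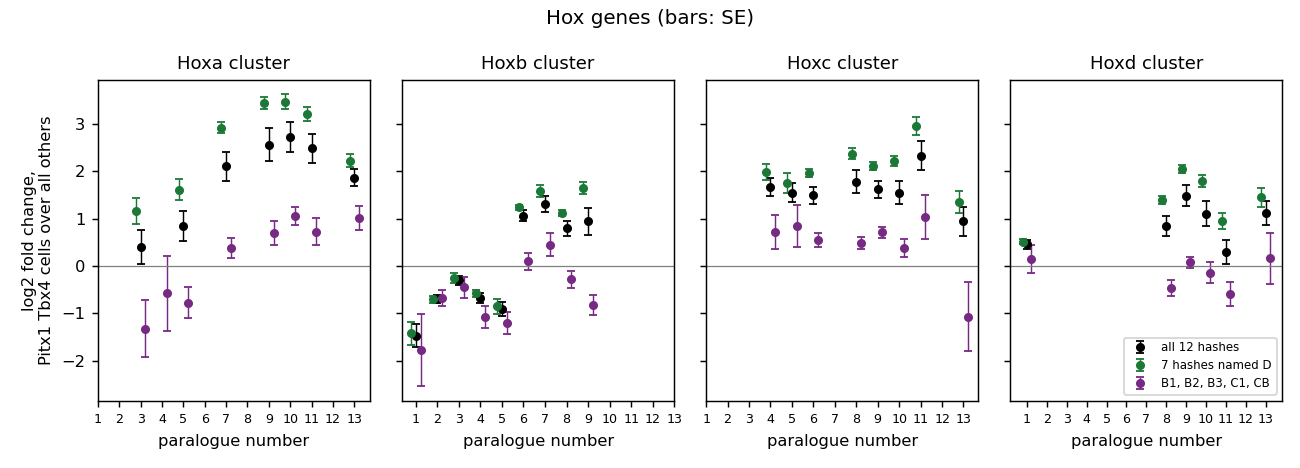
Log2 fold change of Hox genes in Pitx1 Tbx4 cells over all other kept cells, with its standard error, by cluster and paralogue number, in all 12 hashes (black), the 7 hashes named D (green) and B1, B2, B3, C1 and CB (purple). Hoxb1 to Hoxb5 lie below 0, the middle and posterior Hoxa and Hoxc genes well above it in the hashes named D, and the purple points of Hoxa7, Hoxa9, Hoxa10 and Hoxa11 closer to 0 than the green, while those of Hoxb4 and Hoxb5 lie farther below 0 and that of Hoxb9 is at -0.82.

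The T-box genes moved in both directions. T, the factor of the primitive streak and notochord, had 0, 0.995 and 2.42 CPM in Pitx1 Tbx4 cells as lowest, median and highest hash, against 2.27, 4.14 and 9.21 CPM in all other cells (log2 fold change -2.08, SE 0.231), and Eomes, of the early streak, was lower by -2.01 (SE 0.284) in 9 of 12 hashes. Eomes came to -2.66 in the hashes named D alone and -0.31 in B1, B2, B3, C1 and CB alone, which did not pass. Tbx3 was higher by 0.53 (SE 0.0459) and Tbx20 by 0.53 (SE 0.0942), Mga did not pass (0.10, SE 0.0443), and 3 of 7 tested T-box genes were higher and 2 lower.

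The largest changes at 50 CPM or more included genes outside the lists. Phlda2, an imprinted gene that restrains placental growth, had 63.8, 155.7 and 419.2 CPM in Pitx1 Tbx4 cells as lowest, median and highest hash, against 18.6, 32.9 and 113.7 CPM in all other cells (log2 fold change 1.96, SE 0.203). Phlda2 was higher in 12 of 12 hashes, with hash B2 highest. Plac1, an X-linked gene of the trophoblast, was higher by 0.98 (SE 0.0637), and the ligand genes Tgfb2 and Pdgfa by 1.19 (SE 0.122) and 1.08 (SE 0.186). Pdgfa was the less even: it passed in the hashes named D alone (1.52) and not in B1, B2, B3, C1 and CB alone (0.05); hash B2 was lowest there, below its other cells. Rarg, a retinoic acid receptor gene, was higher by 1.10 (SE 0.110), Mllt3 by 1.16 (SE 0.147), Morc4 by 1.14 (SE 0.0600) and Tmem119 by 1.03 (SE 0.0690), of which Rarg (0.39) and Mllt3 (0.37) did not pass in B1, B2, B3, C1 and CB alone.

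The signalling lists held genes of both directions, to be read against the 17.1% higher and 18.5% lower of all genes tested. In the WNT list 6 of 14 tested were higher and 5 lower: the non-canonical ligand genes Wnt5a (log2 fold change 0.90, SE 0.0788) and Wnt5b (1.499, SE 0.172) were higher, and the canonical target Sp5 (-1.94, SE 0.182) and the ligand Wnt2 (-1.03, SE 0.243) lower. In the FGF list 4 of 14 were higher and 6 lower, with Fgf18 higher (1.62, SE 0.239) and Fgf8 (-2.29, SE 0.258), Fgf3 (-1.18, SE 0.125) and Fgfr3 (-1.10, SE 0.252) lower. The BMP list had 5 higher and 5 lower of 16, with the antagonist gene Nog (-1.71, SE 0.255) and the ligand gene Bmp5 (-0.70, SE 0.142) among the lower. The retinoic acid list had 2 higher and 2 lower of 11, shares near those of all genes, with Cyp26a1, which breaks retinoic acid down, lower (-1.32, SE 0.149), and the Hedgehog list 2 higher and 1 lower of 7, with Gli2 higher (0.57, SE 0.0934) and Ihh lower (-2.71, SE 0.329). Of the chorioallantoic attachment list 2 of 7 tested were higher, Bmp7 and Lef1 (0.64, SE 0.0538), and 3 lower. In B1, B2, B3, C1 and CB alone, 235 genes were higher and 467 lower of all 12588 tested. Beside those counts, the WNT list had 2 higher and 1 lower of 14 and the FGF list none higher and 1 lower of 14. The BMP list had 2 and 3 of 17, the retinoic acid list none and 3 of 11, and the Hedgehog list none either way of 7.

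Markers of other cell types were mostly lower in Pitx1 Tbx4 cells. All 9 blood progenitor genes tested were lower (median -2.51), as were all 8 primitive erythroid genes (-2.55), 12 of 13 endothelial genes (-1.71), 8 of 9 primitive streak genes (-2.01), all 6 definitive endoderm and gut genes (-2.48) and all 4 visceral endoderm genes (-2.16). Tal1, the master factor of blood formation, had 0.744, 6.08 and 14.5 CPM as lowest, median and highest hash, against 13.8, 37.4 and 55.5 CPM in all other cells (log2 fold change -2.55, SE 0.144). The summed endothelial level was 85.8 to 212.8 CPM per hash in Pitx1 Tbx4 cells and 356.2 to 590.8 CPM in all other cells, which do not overlap. The summed erythroid level was 16.5 to 1300 CPM, against 162.1 to 4000 CPM, and hash CB carried the high Pitx1 Tbx4 value, with 476.0 CPM of the globin Hbb-bh1. Among the largest falls at 50 CPM or more were Hbb-bh1 (-2.74, SE 0.337), the carbonic anhydrase gene Car2 (-2.43, SE 0.216), the endothelial receptor subunit gene Ramp2 (-2.07, SE 0.211), Spink1 (-2.57, SE 0.377) and Emb (-1.50, SE 0.263), of which Spink1 and Emb did not pass in B1, B2, B3, C1 and CB alone. In B1, B2, B3, C1 and CB alone 11 of 13 endothelial, 5 of 9 blood progenitor and 5 of 8 erythroid genes were lower. So were 2 of 9 streak genes (median -0.73), 1 of 6 definitive endoderm genes (-0.60) and 2 of 3 visceral endoderm genes (-0.85). Of all 12588 genes tested there, 467 were lower. The part of these other cell types in the differences of the remaining genes was not tested in this comparison.

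The remaining lists were mixed or small. Of the extraembryonic and lateral plate list 8 of 14 tested were higher and 1 lower (median 0.25), led by Foxf2 (0.72, SE 0.0921). The neuromesodermal and presomitic list had 2 higher and 5 lower of 8 (median -0.91), somite and paraxial mesoderm none higher and 2 lower of 5, and intermediate mesoderm 1 higher and 2 lower of 3, with Osr1 higher (1.16, SE 0.317). The smooth muscle and mesenchyme list had 3 higher and 4 lower of 14, with Col1a1 higher (0.82, SE 0.0750), and cardiac muscle none higher and 2 lower of 8. Amnion and surface ectoderm had 3 higher and 4 lower of 11, oral ectoderm and pituitary 2 higher and none lower of 4, trophoblast 2 higher and 3 lower of 6, neuroectoderm 2 and 2 of 6, neural crest 1 and 1 of 3, primordial germ cells 1 and 1 of 6, and pluripotency none higher and 4 lower of 9. The cell cycle list had 5 higher and 1 lower of 15 (median 0.08), and glycolysis and hypoxia 2 higher and 5 lower of 11, with Vegfa higher (0.89, SE 0.0899) and the glucose transporter genes Slc2a1 (-0.65, SE 0.0773) and Slc2a3 (-0.47, SE 0.0717) lower.

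The second comparison sets the Pitx1 Tbx4 cells against 7396 kept cells with UMIs of both Hand1 and Foxf1 that failed the Pitx1 Tbx4 rule. Pooled over hashes, most Pitx1 Tbx4 cells held UMIs of these 2 genes too. Hand1 and Foxf1 chose the comparison cells and are left out. Of the Hand1 Foxf1 cells 6746 had a hash, with 159 to 850 cells per sum. Of 11228 genes tested, 1111 were higher (9.89%) and 1221 lower (10.9%) in Pitx1 Tbx4 cells, and 69 and 95 lay beyond 2-fold. The hashes named D alone gave 2280 higher and 1988 lower of 12377 tested, and B1, B2, B3, C1 and CB alone 85 higher and 62 lower of 10784. Counts of list genes in either hash set are again to be read against these.

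Most Hox genes differed from Hand1 Foxf1 cells too. Of 28 Hox genes tested 22 were higher and 6 lower, with a median of 1.33 against -0.001 over all genes tested. Hoxb1 to Hoxb5 were among the lower. Hoxa9 was higher by a log2 fold change of 3.04 (SE 0.221), Hoxa10 by 2.95 (SE 0.223) and Hoxa11 by 2.70 (SE 0.194). Hoxa10 in the Hand1 Foxf1 cells had 2.01, 3.88 and 7.15 CPM as lowest, median and highest hash, below every hash of the Pitx1 Tbx4 cells. Hoxc10 had 29.02, 39.5 and 67.1 CPM in Pitx1 Tbx4 cells, against 3.08, 10.9 and 32.6 CPM in Hand1 Foxf1 cells, and was higher in 12 of 12 hashes (log2 fold change 1.86, SE 0.183). Within B1, B2, B3, C1 and CB alone 10 of 25 Hox genes were higher and 1, Hoxb2, lower (median 0.65), Hoxc10 among the higher (1.11, SE 0.200).

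Genes of the allantois and hindlimb lists were mostly higher in this comparison too, with medians of 0.72 and 0.58. Of 13 allantois genes tested 10 were higher and 1, Msx2 (-0.25, SE 0.0396), lower. Tbx2 was higher by 1.73 (SE 0.135) and Twist1 by 1.36 (SE 0.104), each in 12 of 12 hashes, and Cdx2 by 0.62 (SE 0.0771) in 11 of 12 (0.34 in B1, B2, B3, C1 and CB alone, which did not pass), while Bmp4 (-0.17, SE 0.0735) did not pass. Of 17 hindlimb genes tested 10 were higher and 4 lower. Isl1 was higher by 1.28 (SE 0.0842) in 12 of 12 hashes and Hoxc11 by 2.67 (SE 0.255), and the 4 lower genes were Pkdcc (-1.26, SE 0.121), Fgf10 (-0.77, SE 0.0752), Meis1 (-0.41, SE 0.140) and Gli3 (-0.14, SE 0.0448). In B1, B2, B3, C1 and CB alone 5 of 13 allantois genes were higher and none lower (median 0.37), and 3 of 16 hindlimb genes were higher and 1 lower (median 0.27). In the hashes named D alone the counts were 11 higher and 2 lower of 14 (median 1.00) and 14 higher and 3 lower of 21 (median 0.68).

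**Figure D4:**
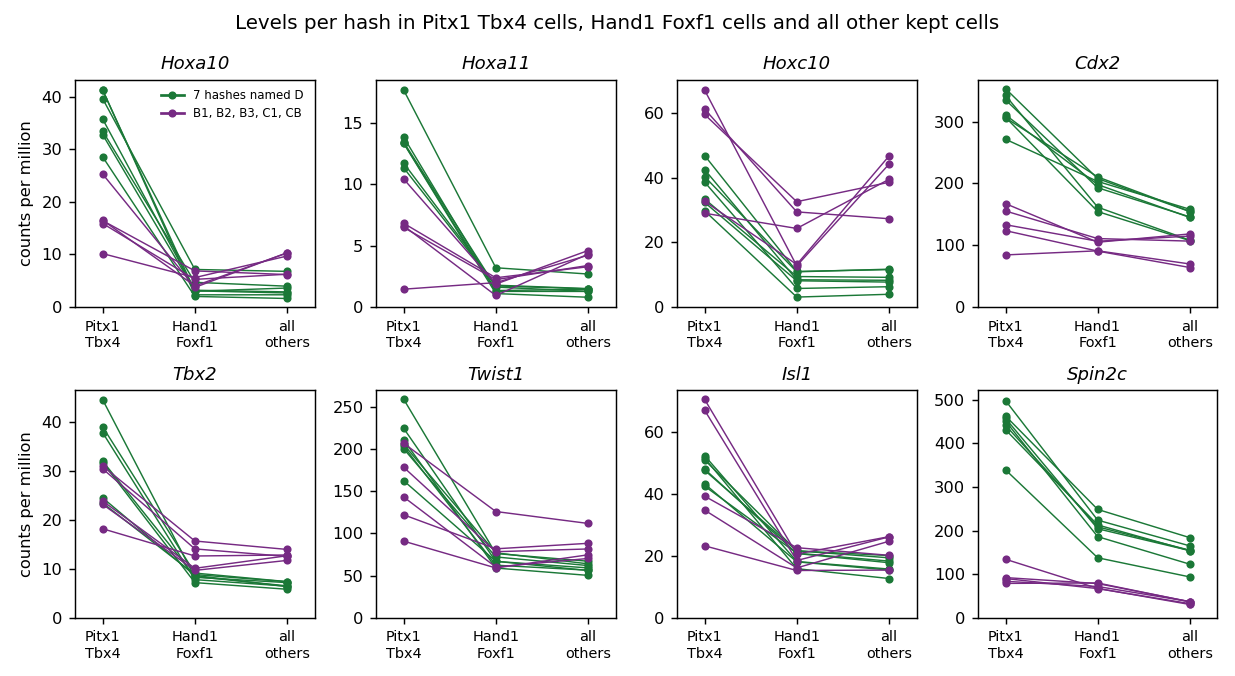
Levels in CPM of 8 genes in Pitx1 Tbx4 cells, Hand1 Foxf1 cells and all other kept cells, with 1 line per hash; the 7 hashes named D are green and B1, B2, B3, C1 and CB purple. Hoxa10 stood at 10.2 to 41.3 CPM in Pitx1 Tbx4 cells and at 2.01 to 7.15 CPM in Hand1 Foxf1 cells, and the purple lines of Spin2c lie below the green ones in every class.

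Beyond the lists, the genes that set the Pitx1 Tbx4 cells apart from Hand1 Foxf1 cells were in part those of the first comparison. Hoxc8, Phlda2, Hoxc9, Hoxd9, Twist1, Pdgfa, Mllt3, Tgfb2, Spin2c, Morc4, Hoxb6 and Rarg were again among the 15 largest rises at 50 CPM or more. The 2 comparisons share the Pitx1 Tbx4 sums, and their agreement is no separate evidence. Vamp8 (0.91, SE 0.148), a vesicle fusion protein gene, Greb1 (0.89, SE 0.0839) and Rnf128 (0.82, SE 0.0708), an E3 ubiquitin ligase gene, completed the 15. Among the falls, Slc2a1, the GLUT1 glucose transporter gene, had 247.6, 335.5 and 431.6 CPM as lowest, median and highest hash, against 451.8, 736.1 and 870.1 CPM in Hand1 Foxf1 cells, with no overlap (log2 fold change -1.09, SE 0.0473; -1.13 in the hashes named D alone and -1.01 in the others alone). Stard8 (-1.51, SE 0.0763), Hsd11b2 (-1.44, SE 0.0743), which inactivates glucocorticoids, and Mid1ip1 (-1.42, SE 0.0820) were lower in 12 of 12 hashes and passed in both hash sets. Fgf3 (-1.10, SE 0.102) was lower in 12 of 12 hashes, and Apoe (-0.84, SE 0.108), Cfc1 (-0.88, SE 0.115), a Nodal co-receptor gene, Rnd2 (-1.04, SE 0.100) and Itm2a (-0.84, SE 0.105) in 11 of 12. Of the genes named here, those that did not pass in B1, B2, B3, C1 and CB alone were Phlda2 (0.66), Pdgfa (0.07), Spin2c (0.36), Morc4 (0.53), Hoxb6 (0.07), Rarg (0.21), Vamp8 (0.15), Apoe (-0.43), Cfc1 (-0.17), Rnd2 (-0.61) and Itm2a (-0.38).

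Endothelial genes were lower here too, 10 of 11 tested (median -0.88), with 5 of 7 blood progenitor genes and 7 of 8 streak genes lower and none higher. In B1, B2, B3, C1 and CB alone 3 of 11 endothelial, 1 of 7 streak and none of 6 blood progenitor genes were lower. Their summed levels were 85.8 to 212.8 CPM of endothelial genes in Pitx1 Tbx4 cells and 183.3 to 333.8 CPM in Hand1 Foxf1 cells. None of 5 definitive endoderm and gut genes passed (median -0.41). Sfrp1, a secreted WNT inhibitor gene, was higher by 1.80 (SE 0.286) and Wnt5b by 1.36 (SE 0.122), while Ptch1, the Hedgehog receptor and target gene, was lower by -0.58 (SE 0.0784) and Bmp5 by -1.22 (SE 0.114). Aldh1a2 (2.74, SE 0.340) and Sox3 (1.28, SE 0.103) were higher at medians of 4.81 and 10.7 CPM in Pitx1 Tbx4 cells. The part of the remaining endothelial and blood RNA was not tested.

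Before differentiation, Tbx4 was measured in the deposited bulk RNA table of epiblast-like cells, in a normalized signal whose depth is unknown. The D2 lines DAC203, D29 and D55 had signals of 9.53, 8.06 and 7.65 (mean 8.41 ± 0.986, SD, n = 3), and the B6 lines B41, B44 and B51 signals of 2.86, 1.91 and 2.85 (mean 2.54 ± 0.548, SD, n = 3). The 2 groups did not overlap, and the 33 BXD lines, which carry recombined B6 and D2 genomes, ran between 0.861 and 10.5 with a median of 3.64. No test was made of these values, and in bulk cells fewer cells with Tbx4 and less Tbx4 RNA per cell cannot be told apart. In embryonic stem cells Hoxa10 and Cdx2 had low mean signals of 0.956 and 0.342 in D2 lines and 0.448 and 0.110 in B6 lines (n = 3 each), also with no test. For Cdx2 the groups overlapped, with 0.0923 to 0.584 in D2 lines and 0.0842 to 0.139 in B6 lines. For Hoxa10 they did not, with 0.750 to 1.11 and 0.325 to 0.541. The 33 BXD lines ran there between 0.365 and 4.07 for Hoxa10 (median 0.948) and between 0 and 7.36 for Cdx2 (median 1.42).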

How the data were processed

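Counts of UMIs per gene and cell were deposited by the authors from a 10x Chromium v3 library; the file header names Cell Ranger 3.1.0 and, per the submitters' processing notes, the genome was mm10. A second table of hash counts per cell was deposited by the authors. The bulk RNA tables hold a signal per gene that the authors had normalized before they deposited it. Cells were filtered and classed as described, and raw counts were summed per hash and class. Tests used edgeR 4.0.16 in R 4.3.3 (TMM scaling, filterByExpr, quasi-likelihood test) with the hash as a block, since both sums of a hash come from the same embryoid body sample, and calls were made at a BH-adjusted p under 0.05. DESeq2 1.42.0 was an alternative. The SE is the log2 fold change divided by the square root of the F statistic. Cells without a 2-fold hash excess, which include doublets of different hashes, were left out of tests; doublets within a hash were not removed, and no doublet caller was run. Intervals and floors cover counting error only. The Pitx1 Tbx4 rule and the gene lists were chosen with earlier results of these data known. Named genes were the 15 largest rises and 10 largest falls at 50 CPM or more among called genes, any gene of the allantois, hindlimb, T-box, Cdx and Hox lists, and up to 4 of each other list. Foxf1, Hand1 and Cfc1 by hash and Prrx2 were named after their values were seen. Levels are CPM of summed UMIs and are compared within a gene. In the tables used, 0 columns of values lack a sample. Bulk libraries beyond those given were not used here. Statistics were tested on simulated data before use. Some genes of the lists are counted but their own values are not reported here.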

Additional observations from a re-analysis of the deposited data

How the results depend on the processing

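Without the replicate block (hash left out of the model) 622 genes were higher and 1034 lower against all other kept cells, and 234 and 291 against Hand1 Foxf1 cells. Depth was also matched, with comparison cells within the interquartile UMI range of the Pitx1 Tbx4 cells. That gave 1502 higher and 1703 lower genes against all other kept cells, and 961 and 1056 against Hand1 Foxf1 cells. In hashes B1, B2, B3, C1 and CB alone, added after seeing the data, the counts were 235 and 467, and 85 and 62, with 5 hashes and 17 to 62 Pitx1 Tbx4 cells each; the hashes named D alone gave 2280 and 1988 against Hand1 Foxf1 cells. Against Hand1 Foxf1 cells, no filter on low counts gave 730 higher genes and a rule of 2 UMIs of each gene 1712. The second rule dropped hashes B1, B2 and B3, which held under 10 such cells each, so its samples differed too. The cause of either shift was not tested. Leaving out each hash in turn gave 1767 (without D332) to 2415 (without B1) higher and 2045 (without D2) to 2518 (without B1) lower genes against all other kept cells, and 826 (without D1) to 1457 (without B1) higher and 951 (without D2) to 1443 (without B1) lower genes against Hand1 Foxf1 cells. Of 1718 values of 72 called list and named genes against all other kept cells, 1628 kept their direction and stayed past the threshold, 84 lost it and 6 turned; against Hand1 Foxf1 cells the counts were 1284, 88 and 2 of 1374 values of 66 genes. The 6 that turned did so in B1, B2, B3, C1 and CB alone: Hoxa5 (-0.775), Hoxb8 (-0.278), Hoxb9 (-0.822), Hoxc13 (-1.07), Hoxd10 (-0.139) and Hoxd8 (-0.462), and the 2 likewise: Hoxb9 (-0.076) and Irx5 (-0.139); the cause was not tested.

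Thinning each cell to 5000 UMIs, a depth at which few cells keep a Tbx4 UMI, gave Pitx1 Tbx4 shares of 2.04% (D1), 2.73% (D2), 0.930% (D31), 1.35% (D32), 1.20% (D331), 0.866% (D332), 1.54% (D333), 0.793% (C1), 0.712% (CB), 0.370% (B1), 0.247% (B2) and 0.277% (B3). These shares rest on few cells, from 2 in hash B2 to 37 in hash D2, and are given without intervals. Hash D331, above D32 and D333 at full depth, came below both. For the markers, the classes of cells stayed those chosen at full depth. Hoxa10 then was in 13.8% of Pitx1 Tbx4 cells, 2.33% of all other cells and 0.315% of erythroid cells, and Cdx2 in 63.5%, 29.98% and 6.94%. In all other and erythroid cells Pitx1 came to 13.5% and 3.47%, and Tbx4 to 0.354% and 0.631%. The planned tests of hashes named D against those named B were not run, since the hash names do not carry the lines of the labels. Cell number limits hashes B1, B2 and B3, with 17 to 30 Pitx1 Tbx4 cells each, whose median hash counts were 354 to 493 against 1966 to 3659 in the others; median depth was lowest in hashes C1 and CB, at 32095 and 33904 UMIs per kept cell.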
